A study of Rattus norvegicus with 4 samples.

Results

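The arrays measured 8 rat genes grouped along the route from membrane phospholipid to prostaglandins. They are the phospholipases A2 Pla2g2a and Pla2g4a, the cyclooxygenases Ptgs1 and Ptgs2, the terminal enzymes Ptges, Ptgis and Ptgds, and Akr1c3. Akr1c3 is placed here by the human enzyme of this name, whereas the rat gene is known for inactivating progesterone. The members are 8 of the 14217 genes that could be named on the array. They were found as the probe sets whose annotation gives 1 gene symbol that matches a member. All 8 were found, through 10 probe sets, and none of these 10 was shared with another symbol. The genes were chosen with their values in these same arrays known, so every value below is a description, and no test was made on them.

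The samples were 4 cultures of L6, a rat skeletal myoblast line labelled as Wistar: an L6-HGF sheet, an L6-WT sheet, an L6-HGF monolayer and an L6-WT monolayer. L6-HGF myoblasts were given human hgf by a pBabepuro retroviral vector and selected with puromycin, and L6-WT myoblasts are wild type, with no empty-vector line described, so that hHGF, vector and selection cannot be told apart. Whether L6-HGF is a pool or 1 clone is not given in the sources used here. Sheets were made by dense plating on thermoreactive dishes, from which they come off intact as the dish cools. How the monolayers were plated is not described in the sources used here. For sheet against monolayer, cell density, dish surface, culture time and detachment therefore cannot be told apart. Each condition had 1 Affymetrix rat genome array, so that differences between cultures have no replicate error here and rest on single measurements.

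The deposited values are log2 values centred, probe set by probe set, on the median of the 4 arrays. They show in which culture a gene was higher, not how abundant its RNA was, and levels of different genes cannot be set against each other. With 4 arrays this centring also makes the 2 middle values of a probe set mirror images around 0. As a yardstick, the SD of 45 bacterial control probe sets was 0.22 (log2) between the L6-HGF and L6-WT sheets, 0.12 between the monolayers, 0.16 between the L6-HGF sheet and monolayer, and 0.18 between the L6-WT sheet and monolayer. The same controls had a median difference of 0.17 and 0.23 between sheet and monolayer in L6-HGF and in L6-WT. For L6-HGF minus L6-WT their median difference was 0.05 in sheets and 0.10 in monolayers. The SD does not include these shifts. The rat Hgf probe set differed by 0.50 between the sheets and 0.38 between the monolayers, and whether it detects the human transgene was not checked. In a bulk culture, fewer cells that express a gene and less of its RNA per cell cannot be told apart.

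Prostaglandins are made in steps. A phospholipase A2 releases arachidonic acid from membrane phospholipids, a cyclooxygenase turns it into the unstable prostaglandin H, and terminal synthases turn that into the prostaglandin a cell secretes. Muscle cells make prostaglandins E, F and I, which are known for their part in the growth and fusion of myoblasts and in the repair of muscle. The cyclooxygenase encoded by Ptgs1 is made in most cells at a steady rate, whereas the one encoded by Ptgs2 is induced by cytokines, growth factors and mechanical stress.

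Of the 8 genes, 2 differed by more than 2-fold (1 on the log2 scale) in any comparison. Pla2g2a was about 4-fold higher in sheets than in monolayers in both cell lines, and Akr1c3 was 3.66-fold higher in the L6-HGF than in the L6-WT monolayer. Between the sheets, 0 of the 8 members passed 2-fold, where 1.44% of all genes did. Between the L6-HGF and L6-WT monolayers, 1 of 8 passed, where 0.535% of all genes did. Between sheet and monolayer, 2 of 8 passed in L6-HGF, where 3.75% of all genes did, and 1 of 8 in L6-WT, where 1.21% did. Past 1.5-fold were 2 of 8 between the sheets, where 5.78% of all genes were, 4 of 8 between the monolayers (2.51% of all genes), 2 of 8 between the L6-HGF sheet and monolayer (11.3%) and 1 of 8 between the L6-WT sheet and monolayer (7.13%). Nothing is read from these counts, since the members were picked from the same comparisons. The median log2 difference over the 8 members was 0.16 between the sheets, against -0.02 over all genes, and -0.07 between the monolayers, against 0.0016 over all genes. For sheet against monolayer the members' median was -0.01 in L6-HGF, against 0.03 over all genes, and 0.02 in L6-WT, against 0.03.

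**Figure D1:**
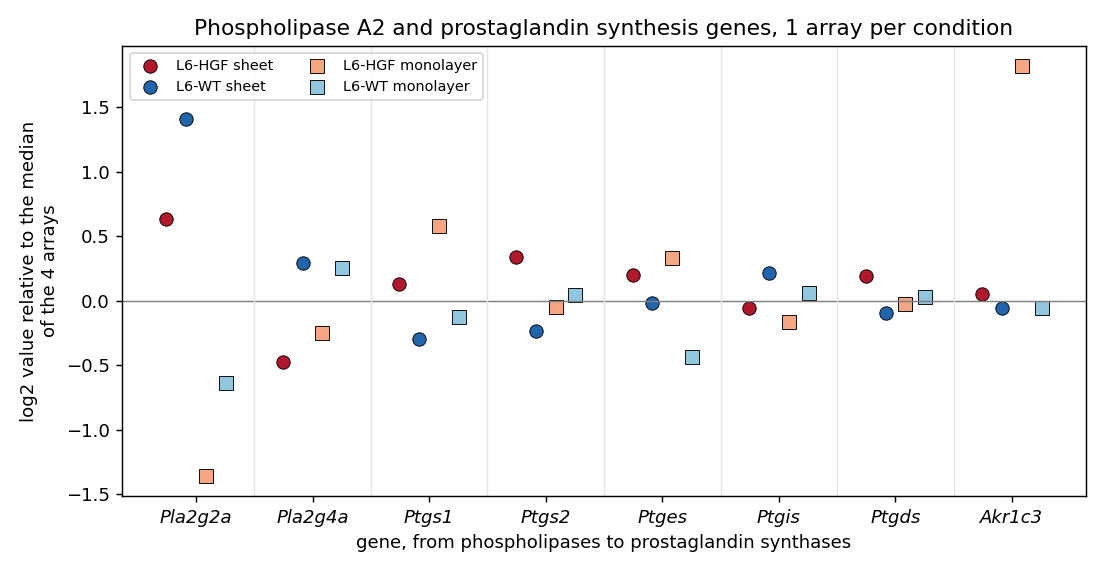
Deposited log2 value, relative to the median of the 4 arrays (vertical axis), of each of the 8 genes (horizontal axis, in pathway order), with 1 symbol per array and no error bar, since each condition had 1 array. Both sheets lie above both monolayers for Pla2g2a, and for Akr1c3 the L6-HGF monolayer lies at 1.82 while the other arrays lie between -0.06 and 0.06.

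The sequences before the transcription start are shown for the 2 genes that passed 2-fold, Pla2g2a and Akr1c3, and for Ptgs1 and Ptges. As gene means, Ptgs1 and Ptges had their highest value in the L6-HGF monolayer, like Akr1c3. For Ptges the step to the L6-HGF sheet was 0.13, under 1 SD of the bacterial controls (0.16). Its second probe set was highest in the L6-HGF sheet, with 0.38 against 0.02 in the L6-HGF monolayer. Each is the 250 bases upstream of the start that RefSeq gives on build GRCr8, read 5′ to 3′ along the gene's strand. Promoters of 7 members were matched, all but Ptgis. Capitals mark every match, on either strand, to TATAAA, the CRE core TGACGT, the AP-1 site TGANTCA, the E-box CANNTG, the C/EBP site TTNNGNAA, the HIF core ACGTG or the NF-kB consensus, and overlapping matches run together.
Pla2g2a, chr5:156359475-156359724, plus strand: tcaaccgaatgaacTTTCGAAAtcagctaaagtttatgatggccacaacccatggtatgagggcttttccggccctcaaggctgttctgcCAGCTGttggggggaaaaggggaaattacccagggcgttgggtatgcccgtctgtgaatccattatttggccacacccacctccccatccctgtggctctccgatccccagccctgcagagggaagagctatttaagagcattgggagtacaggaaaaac
Akr1c3, chr17:71020634-71020883, plus strand: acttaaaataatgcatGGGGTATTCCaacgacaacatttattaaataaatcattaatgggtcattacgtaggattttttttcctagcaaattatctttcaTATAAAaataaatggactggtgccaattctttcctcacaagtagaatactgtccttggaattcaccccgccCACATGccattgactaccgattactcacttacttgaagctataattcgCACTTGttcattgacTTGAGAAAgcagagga
Ptgs1, chr3:39981169-39981418, plus strand: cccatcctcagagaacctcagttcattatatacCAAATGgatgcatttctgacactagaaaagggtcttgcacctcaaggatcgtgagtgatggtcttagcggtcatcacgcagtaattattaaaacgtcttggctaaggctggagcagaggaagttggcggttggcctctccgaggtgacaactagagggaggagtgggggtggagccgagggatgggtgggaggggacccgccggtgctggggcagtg
Ptges, chr3:34586988-34587237, minus strand: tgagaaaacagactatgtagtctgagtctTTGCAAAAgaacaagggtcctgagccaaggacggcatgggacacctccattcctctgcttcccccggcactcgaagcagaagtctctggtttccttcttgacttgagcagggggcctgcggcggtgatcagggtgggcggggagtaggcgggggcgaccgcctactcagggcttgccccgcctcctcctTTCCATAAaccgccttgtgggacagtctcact

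No motif was found in all of Akr1c3, Ptgs1 and Ptges. An E-box match was found in Akr1c3 and Ptgs1 and a C/EBP match in Akr1c3 and Ptges. The E-box letters occurred in 6 of the 7 member promoters, against 65.5% of 33465 rat promoters of the same length, and the C/EBP letters in 6 of 7, against 37.2%. The NF-kB consensus was found in Akr1c3 alone among the 7, against 6.33% of all promoters, and TATAAA in 2 of 7, Akr1c3 and Pla2g4a, against 12.9%. The HIF core occurred in 2 of 7, Ptgs2 and Ptgds, against 16.6%. The CRE core and the AP-1 letters occurred in 0 of 7, against 6.95% and 6.34%. In Ptgs2 the HIF core lay inside an E-box, so that these are the same letters. A match is a description of the letters, not of a bound site.

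Pla2g2a encodes the secreted group IIA phospholipase A2, an enzyme of inflammatory fluids that cleaves phospholipids outside the cell. Its value was 0.64 in the L6-HGF sheet, 1.41 in the L6-WT sheet, -1.36 in the L6-HGF monolayer and -0.64 in the L6-WT monolayer. Both sheets were above both monolayers, and within each format L6-HGF was below L6-WT. The sheet was 3.99-fold higher than the monolayer in L6-HGF (log2 difference 2.0) and 4.14-fold higher in L6-WT (2.05). In L6-HGF, 55 of the 14217 genes had a difference of larger size, and in L6-WT 17 did. L6-HGF was 1.71-fold below L6-WT in sheets (-0.78) and 1.65-fold below it in monolayers (-0.72), which is within 2-fold in both. The L6-HGF minus L6-WT difference in sheets less that in monolayers was -0.05, a size that 83.0% of all genes exceeded, but it was -0.41 after quantile normalization of the arrays. The range over the 4 arrays was 2.77, and 28 genes had a wider one.

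The genes whose 4 values lay nearest to those of Pla2g2a were Omd, Fam180a and Aspn, at Euclidean distances of 0.239, 0.392 and 0.442 over 4 arrays. Omd and Aspn encode osteomodulin and asporin, small leucine-rich proteoglycans of the matrix. Aspn had 0.59 in the L6-HGF sheet, 1.82 in the L6-WT sheet, -1.21 in the L6-HGF monolayer and -0.59 in the L6-WT monolayer. With 4 values per gene the likeness is a description.

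Markers of fibroblasts were examined beside Pla2g2a. Of 6 markers, Dpt and Postn were more than 2-fold higher in the sheet in each line, and 4 were within 2-fold. Dpt, which encodes the matrix protein dermatopontin, was 11.2-fold higher in L6-HGF and 10.1-fold higher in L6-WT, and Postn, which encodes periostin, 7.16-fold and 5.64-fold. The other markers, Col1a1, Col3a1, Pdgfra and Thy1, were not higher in the L6-HGF sheet than in its monolayer, and the list median was -0.33 in L6-HGF and -0.05 in L6-WT. In L6-HGF against L6-WT, all 6 had values below 0 in sheets, between -1.12 and -0.31, and in monolayers, between -1.47 and -0.18. No defining marker could be placed at or above background, since the values hold no signal level, and the part of such cells in the Pla2g2a result was not tested. Of 7 myoblast markers 5 were matched, and of 6 macrophage markers all were. None of these passed 2-fold in any of the 4 comparisons, with values between -0.78 and 0.76 for the myoblast markers and between -0.43 and 0.61 for the macrophage markers.

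**Figure D2:**
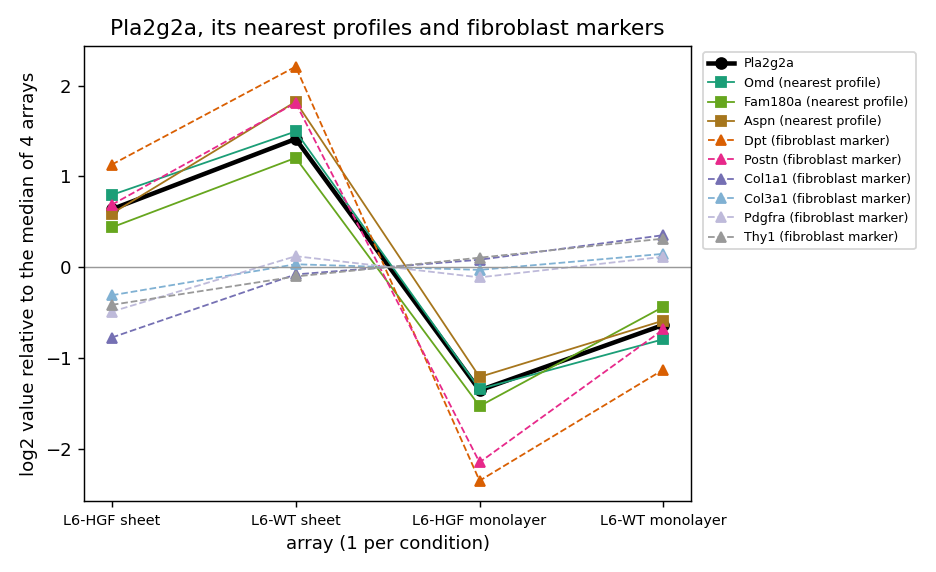
Log2 value relative to the median of 4 arrays (vertical axis) on each array (horizontal axis, 1 per condition) for Pla2g2a (black), the 3 genes nearest to it (squares) and 6 fibroblast markers (triangles, dashed). Dpt and Postn run with Pla2g2a, with both sheets above both monolayers, whereas Col1a1, Col3a1, Pdgfra and Thy1 stay between -0.78 and 0.35.

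Pla2g4a encodes the cytosolic phospholipase A2, which calcium moves to membranes and which prefers phospholipids that carry arachidonic acid. It had -0.48 in the L6-HGF sheet, 0.29 in the L6-WT sheet, -0.25 in the L6-HGF monolayer and 0.25 in the L6-WT monolayer. Both L6-HGF arrays were below both L6-WT arrays. L6-HGF was 1.70-fold lower in sheets (-0.77) and 1.42-fold lower in monolayers (-0.50), with 2.91% and 3.90% of all genes at a larger size. Sheet and monolayer were closer, with -0.22 in L6-HGF and 0.04 in L6-WT. In the order of the 4 arrays, only the step between the 2 lines, of 0.50 between the L6-HGF and L6-WT monolayers, was more than 2 SD of the bacterial controls. Both phospholipases thus had lower values in L6-HGF in either format, while the higher values in sheets were those of Pla2g2a. Pla2g4a and Ptgs2 are neighbours on rat chromosome 13, with 0 protein-coding genes between them in RefSeq. They did not share a direction in both formats. Between the sheets, Ptgs2 was 1.48-fold higher in L6-HGF. Between the monolayers it was lower in L6-HGF (-0.09), as Pla2g4a was, but by under 1 SD of the bacterial controls.

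Ptgs1 had 0.13 in the L6-HGF sheet, -0.30 in the L6-WT sheet, 0.58 in the L6-HGF monolayer and -0.13 in the L6-WT monolayer, as the mean of 2 probe sets. Both L6-HGF arrays were above both L6-WT arrays, the reverse of Pla2g4a. L6-HGF was 1.63-fold higher in monolayers (0.71), where 1.43% of all genes had a larger difference, and 1.34-fold higher in sheets (0.43), where 11.7% had. Its probe sets gave 0.76 and 0.66 in monolayers and 0.30 and 0.55 in sheets, the same direction each time. The gap of 0.25 between the L6-HGF sheet and the L6-WT monolayer, the arrays next to each other across the lines, was under 2 SD of the bacterial controls (SD 0.22).

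Ptgs2 had 0.34 in the L6-HGF sheet, -0.23 in the L6-WT sheet, -0.05 in the L6-HGF monolayer and 0.05 in the L6-WT monolayer. The sheets held the highest and the lowest value and the monolayers lay between them. L6-HGF was 1.48-fold higher in sheets (0.57) and 1.07-fold lower in monolayers (-0.09). The sheet was 1.30-fold higher than the monolayer in L6-HGF (0.38) and 1.21-fold lower in L6-WT (-0.28). The L6-HGF minus L6-WT difference in sheets less that in monolayers was 0.66, and 5.17% of all genes had a larger one in size. No step between neighbours in the order of its 4 arrays exceeded 2 SD of the bacterial controls, and all 4 differences were within 2-fold. Taken directly, L6-HGF minus L6-WT was 2.61 SD of these controls in size in sheets and 0.77 SD in monolayers. Sheet minus monolayer was 2.33 SD in size in L6-HGF and 1.59 SD in L6-WT.

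**Figure D3:**
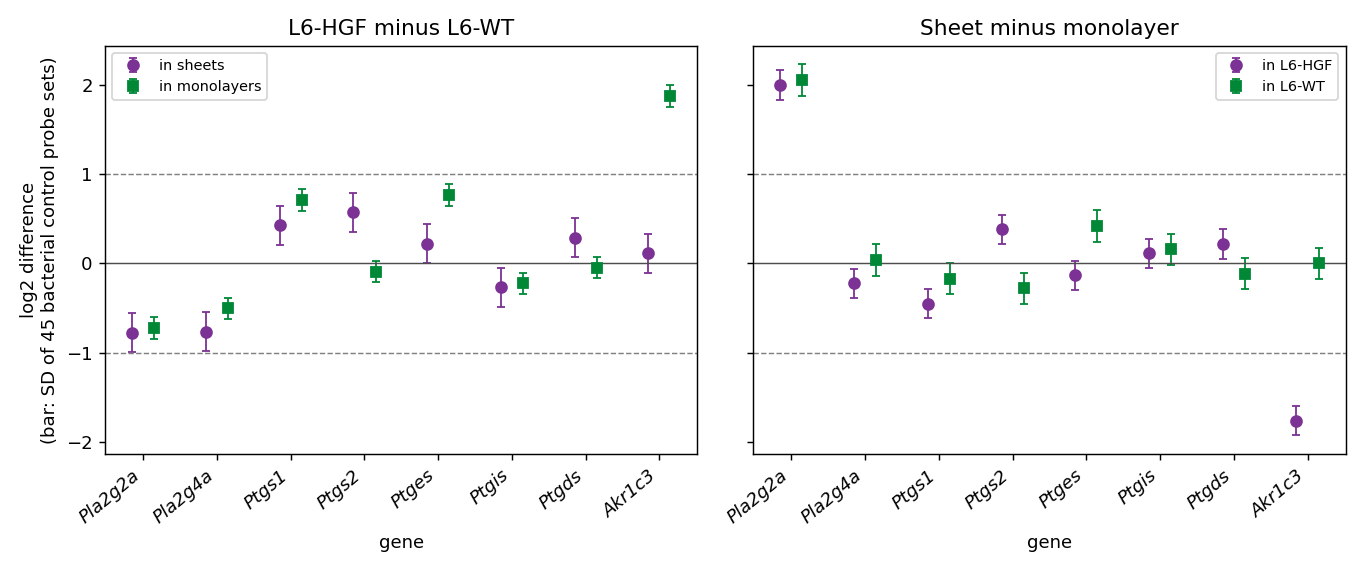
Log2 difference (vertical axis) of each gene (horizontal axis) for L6-HGF minus L6-WT (left panel: sheets, circles; monolayers, squares) and for sheet minus monolayer (right panel: L6-HGF, circles; L6-WT, squares), with dashed lines at 2-fold. Bars are the SD of 45 bacterial control probe sets between the same 2 arrays, not a replicate error, and Pla2g2a in both lines and Akr1c3 in 2 comparisons lie past the dashed lines.

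Ptges encodes the inducible, membrane-bound prostaglandin E synthase. As the mean of 2 probe sets it had 0.20 in the L6-HGF sheet, -0.02 in the L6-WT sheet, 0.33 in the L6-HGF monolayer and -0.44 in the L6-WT monolayer, so that the L6-HGF monolayer was highest and the L6-WT monolayer lowest. L6-HGF was 1.70-fold higher in monolayers (0.77), where 172 of 14217 genes had a difference of larger size, and 1.16-fold higher in sheets (0.22). The probe sets disagreed in size. The first gave 1.26 in monolayers, which is 2.39-fold, and 0.04 in sheets, whereas the second gave 0.27 in monolayers and 0.39 in sheets. On both probe sets L6-HGF was above L6-WT in each format. In sheets, though, the mean difference was 0.99 SD of the bacterial controls, and that of the first probe set was smaller still. The sheet minus monolayer difference had opposite signs on them in L6-HGF, with -0.62 and 0.36, and the same sign in L6-WT, with 0.60 and 0.23.

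**Figure D4:**
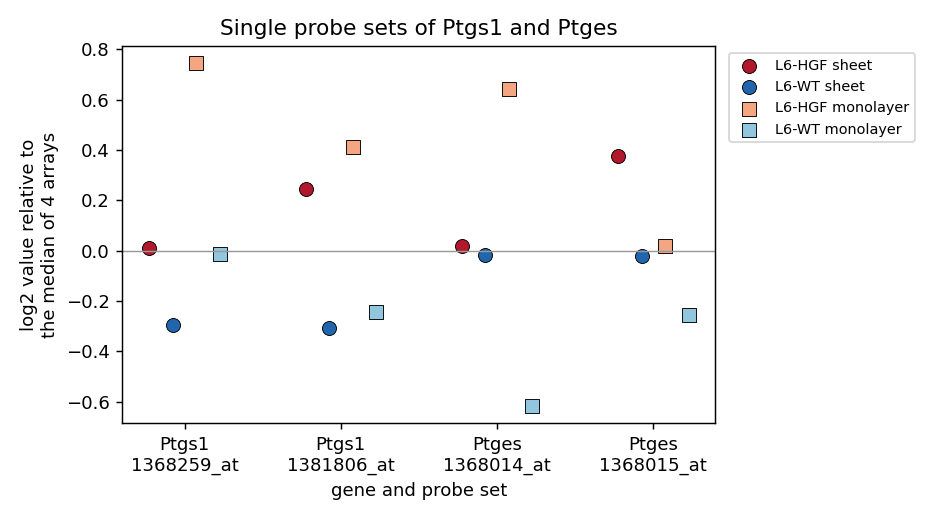
Log2 value relative to the median of 4 arrays (vertical axis) for each probe set of Ptgs1 and Ptges (horizontal axis), with 1 symbol per array. On all 4 probe sets the L6-HGF arrays lie above the L6-WT array of the same format, and on the first Ptges probe set shown the sheets differ by 0.04 while the monolayers differ by 1.26.

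Ptgis encodes prostacyclin synthase, and Ptgds the lipocalin-type prostaglandin D synthase, which is also a carrier of lipids. Ptgis had -0.06 in the L6-HGF sheet, 0.21 in the L6-WT sheet, -0.17 in the L6-HGF monolayer and 0.06 in the L6-WT monolayer, and L6-HGF was 1.20-fold lower in sheets and 1.17-fold lower in monolayers. Ptgds had 0.19 in the L6-HGF sheet, -0.09 in the L6-WT sheet, -0.02 in the L6-HGF monolayer and 0.02 in the L6-WT monolayer. Its range of 0.28 was the narrowest of the 8 genes, and 65.2% of all genes had a wider one. For neither gene did neighbours in the order of the arrays differ by more than 2 SD of the bacterial controls.

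Akr1c3 encodes an aldo-keto reductase. The human enzyme of this name makes prostaglandin F, while the rat gene, also called Akr1c18, is known for the reductase that inactivates progesterone. It had 0.06 in the L6-HGF sheet, -0.06 in the L6-WT sheet, 1.82 in the L6-HGF monolayer and -0.06 in the L6-WT monolayer, so 1 array stood apart from the rest, which spanned 0.11. L6-HGF was 3.66-fold higher in monolayers (1.87), with 7 of 14217 genes at a larger size, and 1.08-fold higher in sheets (0.11). The sheet was 3.39-fold lower than the monolayer in L6-HGF (-1.76), whereas those of L6-WT differed by -7.4e-05. The L6-HGF minus L6-WT difference in sheets less that in monolayers was -1.76, the one past 2-fold among the 8 members, where 1.9% of all genes passed. The gene was read by 1 probe set, and the rat has several closely related Akr1c genes, so that which of them it detects is uncertain. The genes with the nearest values were Il1rl1, Gbp4 and Gnai1, at distances of 0.568, 0.570 and 0.601 over 4 arrays, each with its highest value in the L6-HGF monolayer, between 1.27 and 1.33. For Ptgs1, the third member by range, Tmed5, Erg28 and Axin2 were nearest, at 0.0586, 0.115 and 0.117.

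The rest of the pathway was followed in 7 lists with 72 genes in all, of which 64 were matched to the array. In L6-HGF sheets 2 were higher and 2 lower than in L6-WT sheets by over 2-fold, or 6.25% against 1.44% of all genes. Pla2g4b and Ptgr1 were higher. Egr1 and Fos were lower, and both come from the list of transcription regulators, not from the enzymes. Fos is a mean of probe sets with unlike values, given below. Nothing is read from this share or those that follow, since the lists were chosen with earlier results of these data known. After quantile normalization none of the 64 was higher and 2 were lower (Egr1 and Fos), or 3.12% against 0.661% of all genes, and Pla2g4b and Ptgr1 were within 2-fold. Between the monolayers 1 was higher and none was lower, between the L6-HGF sheet and monolayer none was higher and 1 was lower, and between the L6-WT sheet and monolayer 1 was higher and none was lower. These are 1.56% in each of the 3 comparisons, against 0.535%, 3.75% and 1.21% of all genes. The median over the 64 genes was 0.0062 between the sheets and 4.5e-05 between the monolayers, and 0.0092 and 0.01 for sheet against monolayer in L6-HGF and in L6-WT.

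Ptgr1, a reductase that takes part in the breakdown of prostaglandins and of leukotriene B, was the pathway gene past 2-fold in both formats. It had 0.78 in the L6-HGF sheet, -0.32 in the L6-WT sheet, 0.32 in the L6-HGF monolayer and -0.85 in the L6-WT monolayer. Both L6-HGF arrays were above both L6-WT arrays. L6-HGF was 2.15-fold higher in sheets (1.11) and 2.26-fold higher in monolayers (1.17). Of the 5 genes of prostanoid transport and breakdown, the other 4 lay within 2-fold in all 4 comparisons, among them Hpgd, which encodes the dehydrogenase that starts the inactivation of prostaglandins. L6-HGF minus L6-WT was -0.10 for it in sheets and 0.11 in monolayers.

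Among 13 other phospholipases A2, Pla2g4b, a cytosolic relative of Pla2g4a, was 2.05-fold higher in the sheet of L6-HGF than in that of L6-WT, with 0.85 in the L6-HGF sheet, -0.18 in the L6-WT sheet, 0.11 in the L6-HGF monolayer and -0.11 in the L6-WT monolayer. The 12 others were within 2-fold there, and all 13 in the remaining comparisons. The lowest value between the lines was that of Plaat3, a phospholipase and acyltransferase, with -0.88 in sheets and -0.88 in monolayers. The list for supply of arachidonic acid and its return to phospholipids had 10 matched genes, and none passed 2-fold. It also holds Anxa1, S100a10 and Plaa, which are not enzymes of these steps and are counted in the values below. For sheet against monolayer, 9 of the 10 were below 0 in L6-HGF, with a median of -0.38, and 7 of 10 in L6-WT, with a median of -0.31. Within 1 SD of the bacterial controls were S100a10 (-0.03), Anxa1 (-0.08) and Plaa (-0.11) in L6-HGF, and Acsl1 (-0.13) and Anxa1 (0.11) in L6-WT. The Acsl1 probe sets gave -0.71, 0.42 and -0.86 in L6-HGF. Nothing is read from these counts, since the list was chosen with earlier results of these data known. Over all genes the medians were 0.03 and 0.03. As gene means, Acsl4, which activates arachidonic acid, had the highest value of the list between the lines, with 0.57 in sheets and 0.60 in monolayers. The Acsl1 probe sets gave 0.85, -0.10 and 0.85 between the monolayers.

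The 7 other prostanoid synthases, among them the prostaglandin E synthases Ptges2 and Ptges3, the thromboxane synthase Tbxas1 and the prostaglandin D synthase Hpgds, all lay within 2-fold in the 4 comparisons. Their medians lay between 0.01 and 0.06. The highest values were 0.52 for Cbr1 between the L6-HGF sheet and monolayer and 0.49 for Prxl2b between the L6-HGF and L6-WT monolayers. In each of these comparisons 4 of the 7 were above 0 and 3 below. Of 9 matched prostanoid receptors none passed 2-fold. The lowest value between the lines in that list was that of Ptger4, a receptor for prostaglandin E, with -0.59 in sheets and -0.83 in monolayers. The 8 matched genes listed for the lipoxygenase branch also stayed within 2-fold. That branch makes leukotrienes, among other products, from the same arachidonic acid. The list also holds Ephx2, an epoxide hydrolase and not a lipoxygenase. Between the monolayers its values ran from -0.35 (Alox12) to 0.60 (Ephx2).

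Of 12 transcription factors and regulators known to act on Ptgs2 and Ptges, Egr1 and Fos passed 2-fold, both in comparisons that hold a sheet. Egr1, an early response factor known to bind the mouse Ptges promoter, had -2.58 in the L6-HGF sheet, -0.26 in the L6-WT sheet, 0.26 in the L6-HGF monolayer and 0.48 in the L6-WT monolayer, with a difference of -2.32 between the L6-HGF and L6-WT sheets and of -2.84 between the L6-HGF sheet and monolayer. Fos was 4.94-fold lower in L6-HGF than in L6-WT sheets and 5.51-fold higher in the L6-WT sheet than in the L6-WT monolayer, but these are means over 2 probe sets with unlike values. The first had 4.83 in the L6-WT sheet and between -0.55 and 0.04 on the other arrays, and the second lay between -0.07 and 0.17 on all 4. The NF-kB genes Nfkb1, Nfkb2 and Rela, and Cebpb, Cebpd and Nfkbia, were within 2-fold in all 4 comparisons. For Cebpd this is the mean of 3 probe sets, which gave 1.18, 1.26 and 0.27 between the L6-WT sheet and monolayer. Jun was also within 2-fold as a mean of 3 probe sets. Its probe sets gave -1.04, -0.78 and -0.53 between the L6-HGF and L6-WT sheets, and 0.05, 0.20 and 0.24 between the monolayers.

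**Figure D5:**
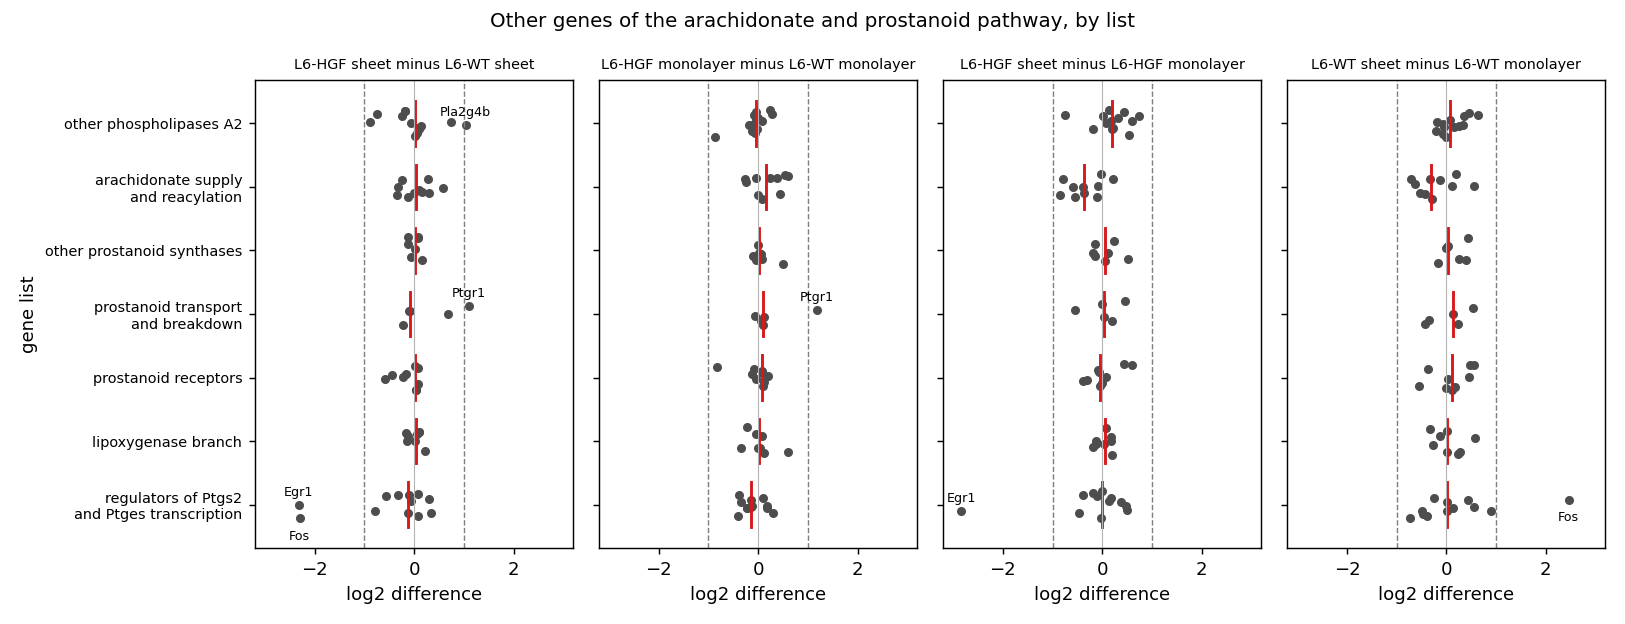
Log2 difference (horizontal axis) of each of 64 matched genes in 7 lists of the pathway (vertical axis) in the 4 comparisons (panels), with red bars at the list medians and dashed lines at 2-fold, and points spread up and down for legibility. Genes past 2-fold are named: Pla2g4b, Ptgr1, Egr1 and Fos.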

How the data were processed

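RNA from 4 L6 cultures was hybridised to Affymetrix rat genome chips, 1 for each condition. Normalization by the authors was with RMA, named in the submitters' processing notes with its version not given in the sources used here, and then to the median. The values the authors deposited are log2 values whose median over the 4 arrays is 0 for each probe set, within rounding. The base of the logarithm follows from RMA, which returns log2 values. After 57 control probe sets were left out, 31042 were compared. Of these, 20826 had 1 symbol, 436 had several and 9780 were unlisted. Symbols were updated through Entrez identifiers (20758 matched, 0 changed), and a gene is the mean of its probe sets. No filter on dim probe sets could be made. Differences were taken between pairs of arrays, with a 2-fold threshold and no test.

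The 8 members and all lists were chosen with earlier results of these data known. Named are all members, list genes past 2-fold in any comparison, the 3 genes nearest to each of the 3 members with the widest range by Euclidean distance, and, chosen after their values were seen, genes at the ends of lists or named for their role. Alternatives were quantile normalization of the centred values, centring of each array, the median over probe sets, probe sets without cross-hybridization suffixes, and a 1.5-fold threshold. The code for gene means, differences, 2-fold counts and quantile normalization was run on simulated data whose shifts lay well past the threshold. That checks the code, not how well differences are found in these arrays. The promoter, array order and nearest-gene steps were not part of it. Promoters came from RefSeq (GRCr8). Python 3.11.15, pandas 2.3.3, numpy 2.4.6 and matplotlib 3.10.9 were used.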

Additional observations from a re-analysis of the deposited data

Results flagged for a closer look

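Ptgs2 had opposite differences between sheet and monolayer in the 2 cell lines, each larger than 1 SD of the bacterial controls. It was 0.38 (log2) in L6-HGF and -0.28 in L6-WT. With 1 array per condition, the difference between the lines was not tested, and both values were within 2-fold.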

How the results depend on the processing

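With a 1.5-fold threshold, 2 members in place of 0 passed between the sheets (Pla2g2a and Pla2g4a, both lower in L6-HGF), where 5.78% of all genes did. Between the monolayers 4 in place of 1 passed (Akr1c3, Ptgs1 and Ptges higher in L6-HGF, and Pla2g2a lower), where 2.51% did. The counts between sheet and monolayer stayed at 2 in L6-HGF and 1 in L6-WT, where 11.3% and 7.13% of all genes passed 1.5-fold. At 2-fold, all 4 counts, and that of 1 member for the L6-HGF minus L6-WT difference compared between formats, were the same under the other 4 alternatives. The median over probe sets and the choice by suffix could not move a member, since each had 1 or 2 probe sets and none with such a suffix. No member difference changed sign under these 4 alternatives. Quantile normalization, which acts on centred values and so is no normalization of signal levels, moved 7 of 40 member differences by more than 1 SD of the bacterial controls. Pla2g2a between the sheets moved to -0.99, Akr1c3 between the monolayers to 2.40, and the Pla2g2a difference between formats, -0.05 as reported, to -0.41. The share of all genes past 2-fold became 0.661% in place of 1.44% between the sheets, where 2 of 64 pathway genes passed in place of 4. In L6-WT sheets against monolayers 2 pathway genes passed in place of 1 (Fos, and Cebpd in addition), as they also did with the median over probe sets. These counts of pathway genes under the alternatives were added after seeing the data. The arrays hold no signal levels here, so signal over background could not be judged for any member.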
